A study of Mus musculus with 24 samples.

Results

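The EBF1 peaks described here are those of a deposited list for mouse pre-B cells whose centre lay more than 100 kb from every gene start of the study's RNA count table. A gene start was the first base of the listed transcript on its own strand, and the table held 24506 genes. Of 17230 peaks, 1720 met the rule, a share of 9.98% (95% exact binomial interval 9.54 to 10.4%). Another 3 peaks lay on contigs without a gene start and were left out. Of the remaining peaks, 3752 lay within 1 kb of a start, 3776 at 1 to 10 kb and 7979 at 10 to 100 kb.

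EBF1 is a transcription factor that starts and maintains the B-cell programme, binding DNA as a dimer at a palindromic site. It is known to act from enhancers as well as promoters, and to open chromatin before the genes nearby are transcribed. An enhancer can lie far from the gene it acts on and can skip nearer genes, so a flanking gene is a neighbour and not a known target.

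The peaks came from 2 EBF1 chromatin immunoprecipitation samples and 1 input of the line 230-238, pre-B cells transformed with Abelson virus. The other assays used cultured pro-B cells from C57BL6/J fetal liver, kept with IL-7, FLT3 ligand and KIT ligand over OP9 stroma cells. RNA libraries compared here, 2 for each group, came from wild-type cells, Ebf1-KO cells and Pax5-KO cells carrying the empty retroviral vector pMiG. The other libraries compared came from Ebf1-KO and Pax5-KO cells carrying pMiG with Ebf1. Libraries of Ebf1-KO and Pax5-KO cells carrying pMiG with Pax5 were part of the same RNA fit but were not compared. PLAC-seq for H3K4me3, a mark of active promoters, captures DNA in contact with marked fragments and was made on 3 wild-type and 4 Ebf1-KO samples of untransduced cells. The peaks were thus mapped in a transformed line, and the RNA and contacts were measured in primary cultures.

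How far these peaks stood from a start depended on which starts were counted. In RefSeq's promoter table for GRCm38.p6, which holds 32851 starts with other transcripts of listed genes and genes that the count table lacks, 15 of 1649 peaks on the chromosomes compared (0.910%) overlapped a window from 250 bases before to 50 after a start. The same table put 188 of the 1649 (11.4%) within 10 kb of a start and 745 (45.2%) beyond 100 kb of all of them. The stretches below are 4 of the 15 overlaps, all 4 with a marked match, which some of the other overlaps lack. They place peaks of this class at starts of other transcripts of Ank2 and Runx1, and of Gm32196 and Gm32657, which the count table lacks. Capitals mark matches on either strand to the EBF1 core palindrome (TCCC and GGGA with 2 bases of any kind between them), the E-box CAGCTG or the RUNX site TGTGGT, which share no overlap with each other in these stretches. Each is written on the strand of its transcript, from RefSeq.
Ank2, chr3:126998419-126998702, minus strand: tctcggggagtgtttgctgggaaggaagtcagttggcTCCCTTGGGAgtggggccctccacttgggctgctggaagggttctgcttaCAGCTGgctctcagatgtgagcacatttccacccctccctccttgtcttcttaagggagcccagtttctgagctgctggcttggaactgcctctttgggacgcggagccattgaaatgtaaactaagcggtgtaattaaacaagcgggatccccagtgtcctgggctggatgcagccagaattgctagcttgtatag
Runx1, chr16:92826025-92826113, minus strand: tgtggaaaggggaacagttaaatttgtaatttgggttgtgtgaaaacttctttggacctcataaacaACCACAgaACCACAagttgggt
Gm32196, chr16:25178080-25178297, minus strand: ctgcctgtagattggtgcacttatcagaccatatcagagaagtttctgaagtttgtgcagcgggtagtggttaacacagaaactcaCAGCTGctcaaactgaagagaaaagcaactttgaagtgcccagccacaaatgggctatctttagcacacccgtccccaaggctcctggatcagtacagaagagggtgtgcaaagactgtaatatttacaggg
Gm32657, chr4:49245548-49245826, minus strand: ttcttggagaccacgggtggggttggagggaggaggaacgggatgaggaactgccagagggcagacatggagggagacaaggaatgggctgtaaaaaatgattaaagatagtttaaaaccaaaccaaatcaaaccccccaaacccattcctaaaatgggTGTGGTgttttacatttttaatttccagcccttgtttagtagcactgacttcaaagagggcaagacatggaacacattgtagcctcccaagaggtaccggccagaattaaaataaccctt
The Ank2 stretch, at a peak with a normalized tag count of 15.0, held the 1 match to the EBF1 core among the 15 full windows of 300 bases. Of all 32851 windows of that length, 0.904% held the core, 16.3% the E-box and 16.8% the RUNX site, against 1, 4 and 3 of the 15. The peak at the Runx1 start (normalized tag count 19.4) lay 129 kb from the Runx1 start of the count table. The sequences of the other peaks were not analysed here.

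The distant peaks had tag counts close to those of EBF1 peaks in general and included the strongest of the whole list. The authors give each peak a normalized tag count, where 1 unit corresponded to 1.80 reads, and a fold over the input; these are the authors' values and serve here only to describe peaks within the list. The median tag count of the distant peaks was 25.0 (95% order-statistic interval 23.9 to 26.1), with quartiles of 16.1 and 44.5. All peaks had a median of 25.5, peaks within 1 kb of a start 21.6, those at 1 to 10 kb 27.7 and those at 10 to 100 kb 26.6. The median fold over input was 13.4 for distant peaks and 12.3 over the list. It was 8.07 within 1 kb of a start, 14.3 at 1 to 10 kb and 13.65 at 10 to 100 kb. Distant peaks made up 11 of the 100 and 115 of the 1000 peaks with the highest tag counts, close to their 9.98% share of the list. Peaks of 1 list are not replicates, so these are descriptions without a test.

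**Figure D1:**
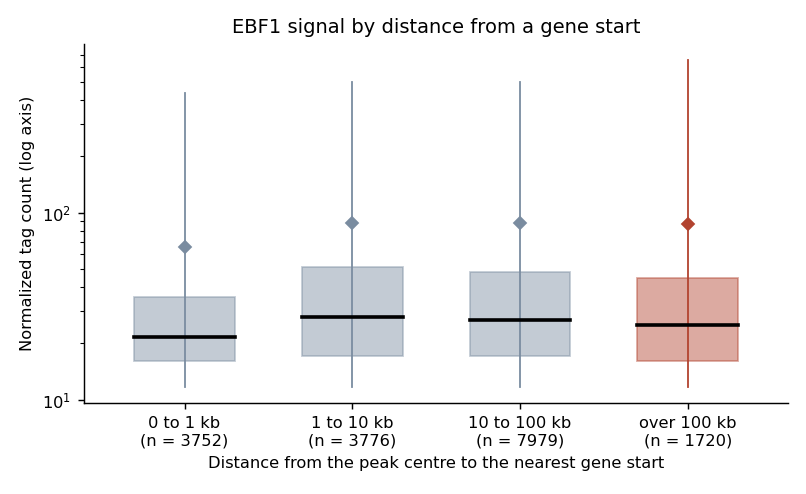
Normalized tag count (log axis) of EBF1 peaks in 4 classes of distance from the nearest gene start, with the quartiles as boxes, the median as a black line, the 90th percentile as a diamond and the full range as a thin line. The median is 25.0 for the 1720 distant peaks and 21.6 for the 3752 peaks within 1 kb, and the highest value, 653.7, belongs to a distant peak.

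Within the class the signal changed little with distance. Peaks at 100 to 200 kb from a start had a median tag count of 26.1, those at 200 to 500 kb 22.5 and those beyond 500 kb 22.8. The median distance was 160 kb, 598 peaks (34.8%) lay beyond 200 kb, 132 (7.67%) beyond 500 kb and 15 beyond 1000 kb. The farthest, at chr2:99752509-99752829, had 31.6 tags and lay 1872 kb from Rag2, which encodes a subunit of the antigen receptor recombinase, and 2285 kb from Lrrc4c, a neuronal adhesion gene. The 3 peaks just inside the limit stood at 100.2 kb with 18.9, 31.6 and 15.5 tags, and the 3 just outside it, at 99.991, 99.94 and 99.861 kb, had 20.0, 21.1 and 14.4 tags.

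The highest 10 peaks of the class lay beside genes of varied roles. The highest peak of the entire list, with 653.7 tags and a fold of 453, lay between Mir1a-2, a microRNA gene of muscle, and Gata6, a transcription factor of endoderm and heart, 133 and 134 kb from their starts; it is 1 of 71 distant peaks on chromosome 18, which were not compared with RefSeq starts here. The next, with 585.4 tags, lay in the immunoglobulin kappa locus at chr6:68884222-68884542. A peak of 366.2 tags at chr14:100937283-100937603 lay between Klf12, a zinc-finger repressor, and Prr30, 788 and 263 kb from their starts.

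Other leading peaks lay near signalling genes or inside long genes. A peak of 344.6 tags at chr2:168439019-168439339 lay between Kcng1, a potassium channel subunit, and Nfatc2, a calcineurin-regulated transcription factor. Peaks of 327.4, 256.4, 246.4 and 233.6 tags lay inside the spans of Wdfy3, Jazf1, Ank2 and Creb5. The peak in Ank2, at chr3:126944907-126945227, lay 1.68 kb from a RefSeq start of another Ank2 transcript. That start is not the Ank2 start whose sequence is shown above. The peak in Creb5 lay 3.70 kb from the RefSeq start of Gm33392, which the count table lacks. The remaining pair, of 288.5 and 247.5 tags, lay between Foxl1 and 1700018B08Rik and between Lhfp and Nhlrc3.

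Many peaks of the class lay inside genes so long that their interior is far from any start. By the count table, 638 peaks (37.1%, exact interval 34.8 to 39.4%) fell within the span of 276 genes and 1082 fell between genes, with median tag counts of 24.7 and 25.0. By RefSeq's genes, 916 of the 1720 peaks fell within a span, so the split depended on the genes counted. Kcnma1, a calcium-activated potassium channel gene, held 16 peaks, Foxp1, a forkhead transcription factor of B-cell development, 13, and Prkca, protein kinase C alpha, 12. Creb5 and Hivep3 held 11 each, Plppr1 and Rad51b 10 each, and Fggy and Wwox 9 each.

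The locus with the most distant peaks was the immunoglobulin kappa light chain locus, whose V segments are joined to J segments in pre-B cells. None of its 168 segments in RefSeq is a gene of the count table, and the same holds for the other antigen receptor loci. The locus, chr6:67555636-70726754, held 70 peaks, of which 62 belonged to the class, or 19.6 per Mb. Their median tag count was 31.1, and 11 of the 62 (17.7%) exceeded 100 tags, against 6.93% of the 1645 distant peaks outside antigen receptor loci.

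The kappa peaks lay close to V segments. The median distance to the nearest V segment was 220 bases, 36 of the 62 lay within 1 kb of a segment and 5 within one. The peak of 192.0 tags at chr6:68481043-68481363 lay 218 bases from Igkv15-101, and the one of 155.4 tags at chr6:68219733-68220053 lay 88 bases from Igkv2-112. The strongest kappa peak was an exception, 18419 bases from the nearest V segment, Igkv13-87, and 3.68 kb from the RefSeq start of LOC108169192. The heavy chain locus, with 215 segments absent from the table, held 7 distant peaks or 2.54 per Mb, the lambda locus 3, T-cell receptor alpha and delta together 2, beta 1 and gamma 0. Without all 75 receptor peaks the class kept its median of 25.0 tags.

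**Figure D2:**
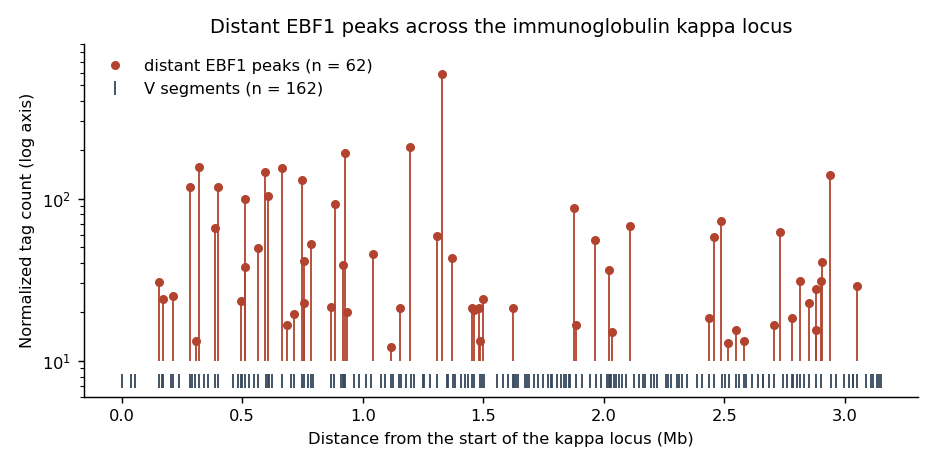
Normalized tag count (log axis) of the 62 distant EBF1 peaks of the immunoglobulin kappa locus against distance from the locus start in Mb, with the 162 V segments as ticks. Peaks spread along the V segments, and 11 of the 62 exceed 100 tags, the highest at 585.4.

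A large share of the distant peaks came in groups. With peaks joined when their centres lay at most 20 kb apart, 803 (46.7%, exact interval 44.3 to 49.1%) fell into 316 groups of at least 2, and 917 stood alone. The groups comprised 215 pairs, 101 groups of 3 or more and 13 of 5 or more, and the median tag count was 27.7 in groups and 22.8 alone. The share depended on the join, at 30.3% for 10 kb and 63.8% for 50 kb. An EBF1 peak of any class lay within 20 kb of 48.0% of the distant peaks, against 51.6% of peaks within 1 kb of a start, 72.2% at 1 to 10 kb and 64.1% at 10 to 100 kb.

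The largest group held 11 peaks over 95.2 kb inside Hivep3, a zinc-finger gene related to enhancer-binding factors, at chr4:119959319-120054516, with 11.7 to 77.1 tags each. The second held 10 peaks over 83.7 kb between Irf2bp2, a transcriptional corepressor, and Tomm20, a mitochondrial import receptor, at chr8:126755708-126839413, with up to 139.3 tags. The third, at chr15:63619969-63658135 between Gm20740 and Gsdmc, packed 6 peaks into 38.2 kb and had the highest median of these 5 groups, 64.95 tags. Groups of 6 also lay inside Arid1b, a subunit of the BAF chromatin remodeller, and between Chsy1, a chondroitin synthase, and Mir7057. A group of 5 lay 176 kb downstream of the start of Foxo1, a forkhead factor that early B-cell development requires, with 23.3 to 143.7 tags. In all, 5 groups held 6 peaks, and the 3 of them drawn were those with the highest summed tag counts; the others lay between Chd7 and Clvs1 and between Bcl2l11 and Gm14005.

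**Figure D3:**
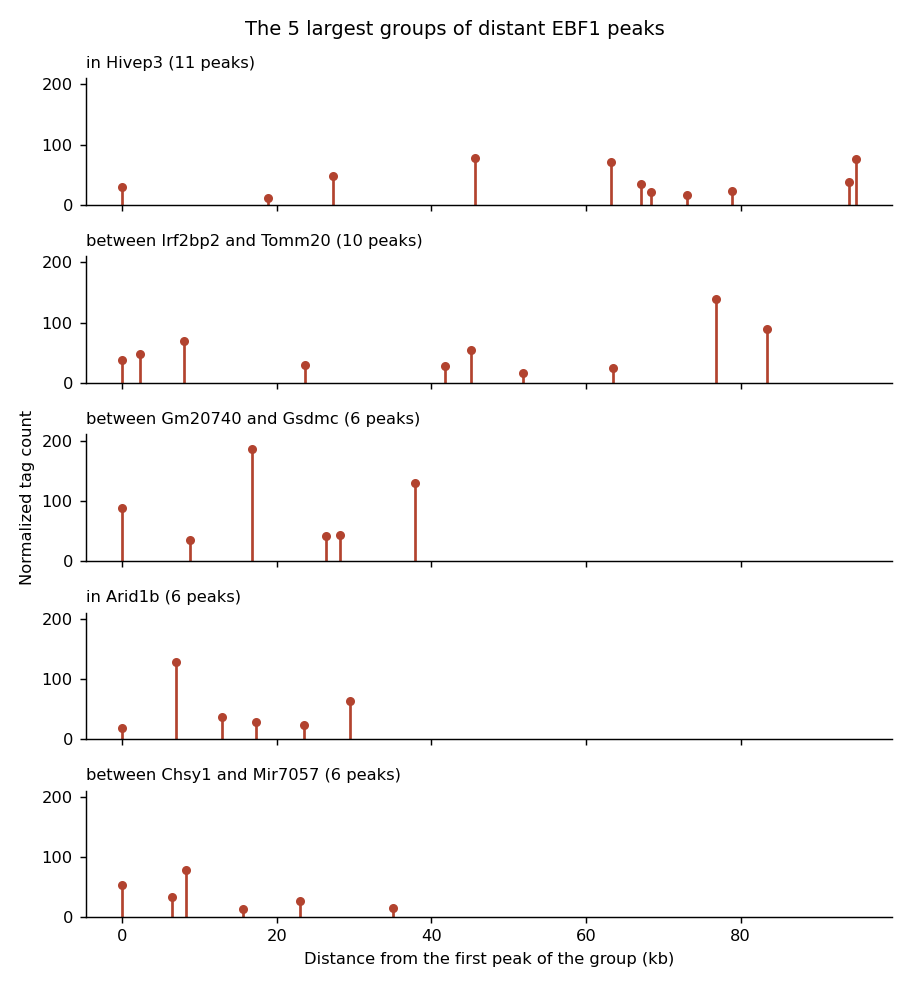
Normalized tag count of each peak in 5 groups of distant EBF1 peaks, those with the most peaks and, among ties, the highest summed tag count, against distance from the first peak of its group in kb. The Hivep3 group holds 11 peaks over 95.2 kb, and the highest single peak, 186.4 tags, lies in the group between Gm20740 and Gsdmc.

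The third of these groups lies downstream of Myc, the growth regulator whose control by EBF1 and PAX5 is the stated subject of the study. A region about this far from Myc is known in the mouse as an enhancer cluster of blood cells. Within 3 Mb of the Myc start lay 24 distant peaks: 3 upstream, 12 at 0 to 1.5 Mb downstream, 7 at 1.5 to 2 Mb and 2 farther. The contact profiles give, for each genotype pooled over its samples, the count of contacts between restriction fragments and the Myc start, 9143 in wild type and 17349 in Ebf1-KO. Pooling leaves no replicate test, so intervals cover counting error only, and peak positions come from another cell line.

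The fragments within 5 kb either side of the 24 peaks took 8.75% of wild-type contacts (exact interval 8.18 to 9.35%) and 8.55% of Ebf1-KO contacts (8.14 to 8.97%), intervals that overlapped. The 7 peaks at 1.5 to 2 Mb took 3.98% in wild type (3.59 to 4.40%) and 3.63% in Ebf1-KO (3.36 to 3.92%). For the 12 peaks nearer to Myc the shares were 4.47% (4.06 to 4.92%) and 4.84% (4.52 to 5.17%). In both sets the intervals of the genotypes overlapped at this window. With 25 kb either side they did not overlap for the 12 nearer peaks, at 15.1% (14.4 to 15.9%) in wild type and 17.7% (17.1 to 18.3%) in Ebf1-KO, and overlapped for the 7 peaks, at 7.73% (7.19 to 8.30%) and 6.88% (6.51 to 7.27%).

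Smaller sets differed beyond counting error within 5 kb either side, while no interval was taken for the 50 kb bins around them. The 3 upstream peaks took 23 of the wild-type contacts, 0.252% (0.160 to 0.377%), and 9 of the Ebf1-KO contacts, 0.0519% (0.0237 to 0.0985%). Of these, the pair at chr15:61440307-61440627 and chr15:61441798-61442118, 545 and 543 kb upstream of Myc, carried 16 and 20 wild-type contacts against 8 and 8 in overlapping windows. A peak of 93.8 tags at chr15:63312650-63312970, 1327 kb downstream, took 0.262% (0.168 to 0.390%) in wild type and 0.104% (0.0615 to 0.164%) in Ebf1-KO. The whole 50 kb bins that hold these peaks were lower in Ebf1-KO too: the bin from 550 kb upstream took 0.459% against 0.254%, and the bin from 1300 kb downstream 1.04% against 0.525%. Both bins include the contacts at the peaks themselves, so they do not show whether the contacts around the peaks differed. Upstream bins without a distant peak went both ways within the range drawn. Most had lower shares in Ebf1-KO, such as the one from 450 kb (0.547% against 0.156%). Those from 1000, 900 and 50 kb upstream had higher shares in Ebf1-KO. Lower shares were thus not limited to bins with a peak, and whether the peaks had a part in them was not tested. The strongest peak of the downstream group, 186.4 tags at chr15:63636716-63637036, took 0.602% (0.453 to 0.782%) and 0.444% (0.350 to 0.554%), with overlapping intervals. The peaks near Myc were singled out from 24 after their values were seen.

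**Figure D4:**
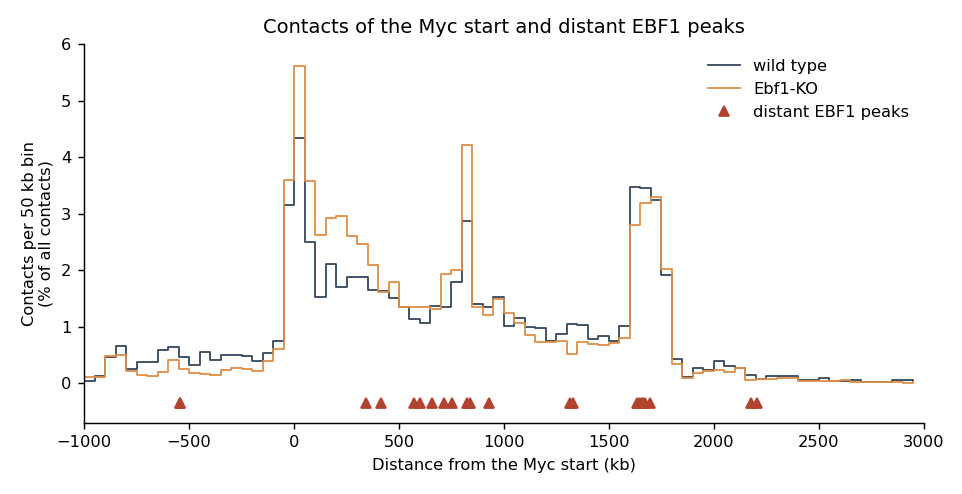
Share of all contacts of the Myc start in 50 kb bins against distance from that start in kb, as 1 pooled profile for wild type and 1 for Ebf1-KO, with triangles at distant EBF1 peaks within the range drawn. Both profiles rise again where the 7 peaks at 1.5 to 2 Mb lie, which took 3.98% of wild-type and 3.63% of Ebf1-KO contacts. The rise is not limited to these peaks: the bins from 1700 and 1750 kb, which hold no distant peak, took 3.25% and 1.91% in wild type.

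For the RNA comparisons, the flanking genes of a peak were the nearest start on each side and any gene whose span held it. The 1720 peaks had 1244 flanking genes, 973 of them protein-coding, and 197 flanked 5 or more peaks. Of the 1244, 745 (59.9%) passed the filter on low counts, against 59.4% of all genes, and 499 were not tested. Exon counts per library ran from 16.1 to 42.1 M (M, mega), and values are CPM, counts per M of library size scaled by TMM. The labels do not say whether the libraries of a group came from separate animals, so p-values measure the spread between these libraries.

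The labels and the cell type were checked first. Ebf1, the deleted gene, stood at 966 and 1102 CPM in wild-type libraries, at 244 and 282 in Ebf1-KO, and at 857 and 893 with the Ebf1 vector; counts over exons outside a deletion, or from the vector, remain in these values. The summed level of 8 B-cell precursor markers was 5390 and 5152 CPM in wild type but 272 and 313 without Ebf1. The other way round, 6 myeloid markers summed to 26.6 and 23.9 CPM against 551 and 499 in Ebf1-KO, 6 T-lineage markers to 9.32 and 7.21 against 143 and 182, and 5 stromal markers to 0.207 and 0.915 against 58.4 and 64.1. Cd3e, Cd3g and Bcl11b were at 0 in wild type. All 8 B-cell precursor markers were lower in Ebf1-KO, and all 6 myeloid markers and the 5 T-lineage markers tested were higher. Of the stromal markers only 3 were tested and 1 was higher, and Col3a1 was at 0 in both genotypes. In such bulk samples, fewer cells of a type and less RNA per cell cannot be told apart, and the part of these shifts in the results below was not tested.

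The first question was how the neighbours of distant peaks differ in cells without Ebf1. In Ebf1-KO against wild type, 85 of 745 flanking genes were higher (11.4%) and 122 lower (16.4%) by edgeR's quasi-likelihood test with Benjamini-Hochberg adjustment. Among all 14550 genes tested, 8.02% were higher and 6.65% lower. The median log2 fold change was -0.15 over the flanking genes and 0.03 over all. Leaving out wild-type replicate 2 left 49 higher, and leaving out Ebf1-KO replicate 1 left 70 lower; a group with 1 library is then assumed to vary like the others.

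Neighbours of nearer peaks and neighbours with an EBF1 peak at their own start give the scale. Of 5131 tested genes flanking peaks at 10 to 100 kb, 9.90% were higher and 11.3% lower. Of the 745 genes flanking distant peaks, 338 also had an EBF1 peak centre within 10 kb of their start, and 32 of these were higher (9.47%) and 80 lower (23.7%). Among all 6678 tested genes with such a peak, 6.98% were higher and 9.21% lower. Of the 407 without one, 53 were higher (13.0%) and 42 lower (10.3%), beside 8.90% and 4.47% of all 7872 tested genes without one. Of the 225 tested genes whose span held a distant peak, 31 were higher and 51 lower, and of the 132 that flanked 5 or more, 22 and 32; no other genes were matched to these. These gene sets overlap and were not tested against each other.

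Of 7 tested B-lineage genes beside distant peaks, 5 fell without Ebf1. In the whole list of 33 genes 25 fell, a similar share, so the count is not particular to neighbours of distant peaks. Foxo1, with 13 flanking peaks, had 588 and 638 CPM in wild-type libraries but 23.0 and 21.3 without Ebf1. The groups lay far apart, and the log2 fold change was -4.79 (SE 0.20, edgeR adjusted p = 5.4e-10).

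Lef1, a transcription factor of the Wnt pathway, dropped from 382 and 404 CPM to 1.97 and 1.10, a fall of 8.02 on the log2 scale (SE 0.40, edgeR adjusted p = 4.3e-09). Its 2 peaks, the nearer 180 kb away, were modest, with at most 33.3 tags. Bach2, a transcriptional repressor with 6 peaks, went from 994 and 1267 CPM to 94.1 and 95.3 (log2 fold change -3.58, SE 0.23, edgeR adjusted p = 5.9e-08). Rag2 fell by 1.48 (SE 0.21, edgeR adjusted p = 0.00017), and its nearest peak was the farthest of the class. Ebf1 itself, with 6 peaks, also belongs to the 5, as the deleted gene. Bcl11a had 614 and 539 CPM against 343 and 379 and Bank1 11.0 and 8.01 against 24.3 and 27.2, and neither passed the test (edgeR adjusted p = 0.058 and 0.069).

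Of 9 tested flanking genes on the list of other blood lineages and progenitors, 4 rose (Nfil3, Runx2, Tox and Maf) and 1 fell (Zeb2), while in the whole list of 36 genes 25 rose and 3 fell. Runx2, a Runt factor best known from bone, stood at 2.12 CPM in both wild-type libraries but at 519 and 683 without Ebf1. Its log2 fold change was 8.14 (SE 0.26, edgeR adjusted p = 1.2e-10), and 7 distant peaks flanked it, the highest with 198.6 tags. Tox, a regulator of T-cell development, rose by 6.50 (SE 0.82, edgeR adjusted p = 5.3e-05). The T-lineage and myeloid markers that moved with these genes are given above.

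Growth and signalling genes went both ways: of 11 tested, Mycn and Pik3r1 rose, and Btg1, Cxcr4, Jun and Foxp1 fell, beside 5 higher and 9 lower of 26 in the whole list. Mycn, a relative of Myc, went up from 29.3 and 20.9 CPM to 176 and 238 (log2 fold change 3.04, SE 0.42, edgeR adjusted p = 0.00012). Jun, an AP-1 subunit with 8 peaks, had 82.3 and 91.0 CPM against 6.08 and 4.35 (log2 fold change -4.06, SE 0.41, edgeR adjusted p = 5.9e-06). Btg1, an antiproliferative gene, fell by 3.18 (SE 0.33, edgeR adjusted p = 8.8e-06). Cxcr4, a chemokine receptor of B-cell precursors, fell by 1.58 (SE 0.19, edgeR adjusted p = 2.9e-05). Foxp1, which flanked 14 peaks, fell by 0.65 (edgeR adjusted p = 0.038), and each of the 4 libraries was needed for that call (0.05 to 0.34 when 1 was left out). Myc, with no distant peak as a flank, had 299 and 248 CPM against 143 and 187 (edgeR adjusted p = 0.068). With Ebf1 added to Ebf1-KO cells Myc did pass edgeR's test against Ebf1-KO. That call was lost without replicate 2 of the Ebf1 vector or either Ebf1-KO replicate.

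Of 11 developmental transcription factors tested, 2 rose and 5 fell, and of 8 adhesion and neuronal genes, 1 rose and 1 fell. In the whole lists, 20 rose and 10 fell of 74 developmental factors, and 9 rose and 8 fell of 82 adhesion and neuronal genes. Nfia, a nuclear factor I gene holding 2 peaks, fell by 5.23 (SE 0.85, edgeR adjusted p = 0.00051), and Pcdh9, a protocadherin with 12 peaks, fell by 5.04 (SE 0.56, edgeR adjusted p = 2.1e-05). The count table has 222 genes of the adhesion and neuronal list, of which 36 flanked a distant peak; 28 of those did not pass the filter on low counts.

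The neighbours with the largest changes were often silent in 1 genotype, so folds are lower bounds set by 3 counts over the silent group. Aoah, which encodes a lipopolysaccharide-degrading enzyme, rose from 0 to 67.4 and 72.2 CPM, at least 856-fold higher (edgeR adjusted p = 1.1e-08). Eya1, a transcriptional coactivator, went from 0 to 51.4 and 55.0 CPM, at least 652-fold higher (edgeR adjusted p = 2.4e-06), and held or flanked 4 peaks. Slc8a1, a sodium-calcium exchanger, was at least 308-fold higher, and Chdh, a choline dehydrogenase whose span overlaps Cacna1d, at least 344-fold higher. Others of the 12 genes named for the largest rises were low, such as Sema3d, a semaphorin, at 1.33 and 1.59 CPM in Ebf1-KO; leaving out any single library ended its call (0.12 to 0.21).

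In the other direction, Tead1, a transcription factor of the Hippo pathway, went from 126 and 106 CPM to 0.503 and 0.0690, and Pcp4, a calmodulin-binding gene, 74.8 and 45.8 against 0.0457 and 0.242. Their log2 fold changes were -8.72 (SE 1.59, edgeR adjusted p = 0.0014) and -8.59 (SE 1.16, edgeR adjusted p = 9.7e-05). Ank2, a membrane-skeleton adaptor that holds the peak of 246.4 tags, had 9.22 and 6.86 CPM in wild type. It had none in either library without Ebf1, at least 136-fold lower (edgeR adjusted p = 0.0084). Without Ebf1-KO replicate 1 or 2 the Ank2 call was lost (0.066 and 0.075). Cacna1e, a calcium channel gene with 7 peaks, was at 8.44 and 4.52 CPM against 0 (edgeR adjusted p = 0.018), and each of the 4 libraries was needed for the call (0.059 to 0.11 when 1 was left out).

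The neighbours of the strongest peaks and largest groups did not move as 1 set. Hivep3, with its 11 peaks, fell from 123 and 115 CPM to 3.25 and 4.52 (log2 fold change -4.93, SE 0.48, edgeR adjusted p = 4.1e-06). Camk2d, a calcium-dependent kinase with 9 peaks that include the strong one in Ank2, fell from 561 and 616 CPM to 45.6 and 45.1 (log2 fold change -3.70, SE 0.21, edgeR adjusted p = 1.4e-08). Klf12, whose start lay 788 kb from the peak of 366.2 tags, fell by 4.96 (SE 0.73, edgeR adjusted p = 0.00023). These 3 genes were lower in both Ebf1-KO libraries than in either wild-type library, but none of the 207 flanking genes called had overlapping libraries.

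Beside the peak of 344.6 tags, both neighbours were higher in Ebf1-KO: Kcng1 rose from 1.92 and 1.89 CPM to 6.45 and 9.60 (log2 fold change 2.08, edgeR adjusted p = 0.00055) and Nfatc2 from 4.92 and 2.35 to 41.1 and 54.1 (3.71, edgeR adjusted p = 1.3e-05). Beside the group of 10, Irf2bp2 rose by 0.62 (edgeR adjusted p = 0.036), which leaving out any single library ended (0.069 to 0.23), and Tomm20 had 32.7 and 49.9 CPM against 75.6 and 52.9 (edgeR adjusted p = 0.25). Chsy1 and Arid1b fell by 1.16 and 0.96 (edgeR adjusted p = 0.004 and 0.0061), and both calls were lost without Ebf1-KO replicate 1 (0.067 and 0.071). Tax1bp1, beside the peak in Jazf1, had 238 and 221 CPM against 208 and 254, and Gata6, beside the highest peak, was not tested, with at most 0.0457 CPM in these 4 libraries.

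The second comparison asked which neighbours move when Ebf1 is put back into Ebf1-KO cells. Against Ebf1-KO with the empty vector, 42 of 745 flanking genes were higher (5.64%) and 11 lower (1.48%), beside 2.21% and 0.763% of all genes, or 2.97% in either direction. The Ebf1-KO libraries are shared with the first comparison, so the 2 comparisons are not independent. Higher calls numbered 22 and 27 without Ebf1-KO replicate 1 or 2 and 27 without replicate 2 of the Ebf1 vector, and lower calls 4 to 7 without any 1 of the 4 libraries.

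Foxo1 had 258 and 236 CPM with Ebf1, above the 23.0 and 21.3 without it (log2 fold change 3.48, SE 0.18, edgeR adjusted p = 2.1e-08). Plxna1, a semaphorin receptor 107 kb from a single peak of 38.3 tags, went from 6.45 and 10.5 CPM to 271 and 280 (log2 fold change 5.02, SE 0.30, edgeR adjusted p = 7.8e-08), beside 286 and 263 CPM in wild type. Camk2d rose to 222 and 267 CPM (2.43, SE 0.20, edgeR adjusted p = 2.7e-06) and Lef1 to 16.9 and 21.4 CPM (3.66, SE 0.35, edgeR adjusted p = 1.5e-05), both below wild type. Of the 7 B-lineage neighbours, 4 rose: Foxo1, Lef1, Rag2 and Ebf1, the last including any reads of the vector. In the whole list 19 of 33 rose, a similar share, and 1 fell.

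Some genes had values above those of wild type, a difference that was not tested. Thrb, a thyroid hormone receptor with 4 peaks, had 62.6 and 40.5 CPM in wild type, 3.16 and 3.35 after deletion and 165 and 196 with Ebf1 restored (log2 fold change 5.79, SE 0.31, edgeR adjusted p = 2.1e-08). Nav2, a neuron navigator gene holding 8 peaks, had 61.2 and 56.8, then 11.8 and 10.1, then 399.8 and 404 CPM (5.20, SE 0.24, edgeR adjusted p = 7.4e-09). Chsy1 had 112 and 129, 47.4 and 60.2, and 287 and 313 CPM (2.48, SE 0.25, edgeR adjusted p = 3.2e-05). Hivep3, by contrast, had 11.4 and 7.79 CPM with Ebf1 and did not pass the test (edgeR adjusted p = 0.18).

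Runx2 fell by 1.60 (SE 0.19, edgeR adjusted p = 0.00014), to 191 and 206 CPM, still above its wild-type level. Chst11, a chondroitin sulfotransferase with 4 peaks, fell from 22.6 and 17.8 CPM to 2.07 and 2.91 (log2 fold change -3.01, SE 0.41, edgeR adjusted p = 0.00042). Mycn fell to 34.1 and 48.2 CPM (-2.33, SE 0.41, edgeR adjusted p = 0.0039), but at 0.069 without replicate 1 of the Ebf1 vector. The neighbours of the peak of 344.6 tags parted: Kcng1 rose further, to 59.2 and 65.8 CPM (2.96, SE 0.32, edgeR adjusted p = 6.4e-05), and Nfatc2 fell to 11.2 and 11.0 CPM (-2.10, SE 0.38, edgeR adjusted p = 0.0046). The Nfatc2 call was lost without either library of the Ebf1 vector or Ebf1-KO replicate 2 (0.058, 0.07 and 0.057).

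The third comparison used cells that lack Pax5 and asked what added Ebf1 does there. Against Pax5-KO with the empty vector, 27 flanking genes were higher (3.62%) and 17 lower (2.28%), beside 1.75% and 1.85% of all genes, or 3.6% in either direction. These counts leaned on single libraries: 51 and 78 without replicate 2 of the Ebf1 vector, 17 and 13 without Pax5-KO replicate 1, and 8 and 5 without Pax5-KO replicate 2. A fit of only these groups called 8 higher and 0 lower by edgeR, beside 65 and 43 at an unadjusted p under 0.05, while DESeq2 called 59 and 53. Shares over all genes were taken in the main fit only, so the counts under these settings have none beside them.

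Ebf1 RNA, vector reads included, was 315 and 241 CPM with the empty vector and 1643 and 1482 with Ebf1. Plxna1 rose from 38.4 and 26.3 CPM to 475 and 537 (log2 fold change 3.97, SE 0.28, edgeR adjusted p = 1.2e-05). Hivep3 rose from 20.4 and 8.01 CPM to 219 and 120.5 (3.58, SE 0.45, edgeR adjusted p = 0.0007), and Thrb from 182 and 196 to 752 and 1151 (2.33, SE 0.26, edgeR adjusted p = 0.00023). In each of these 3 genes both libraries with Ebf1 were above both without it, but none of the 44 flanking genes called had overlapping libraries. The effect on Hivep3 was not shown to differ from that in Ebf1-KO cells (interaction, edgeR adjusted p = 0.16).

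Of the 7 B-lineage neighbours 5 rose, beside 10 higher and 2 lower of 33 in the whole list, a difference that was not tested. Among them Foxo1 rose by 1.30 (SE 0.17, edgeR adjusted p = 0.00096) and Lef1 by 2.09 (SE 0.30, edgeR adjusted p = 0.0016); in the fit of only these groups Foxo1 missed the threshold (0.073). Bach2 rose by 1.21 (edgeR adjusted p = 0.0053), a call lost without Pax5-KO replicate 2 (0.084), and Rag2 by 1.03 (edgeR adjusted p = 0.014), lost without Pax5-KO replicate 1 or 2 (0.11 and 0.066). Ly86, an accessory protein of a Toll-like receptor homologue with 6 peaks, fell from 1.47 and 2.92 CPM to 0, at least 41.4-fold lower (edgeR adjusted p = 0.0017, and 0.21 in the fit of only these groups). Runx2 fell by 0.96 (edgeR adjusted p = 0.012), lost without replicate 1 of the Ebf1 vector or Pax5-KO replicate 2 (0.051 and 0.1). The group downstream of Myc had quiet neighbours. Gm20740 had at most 5.16 CPM in the libraries compared here and passed no test, and Gsdmc was not tested.

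**Figure D5:**
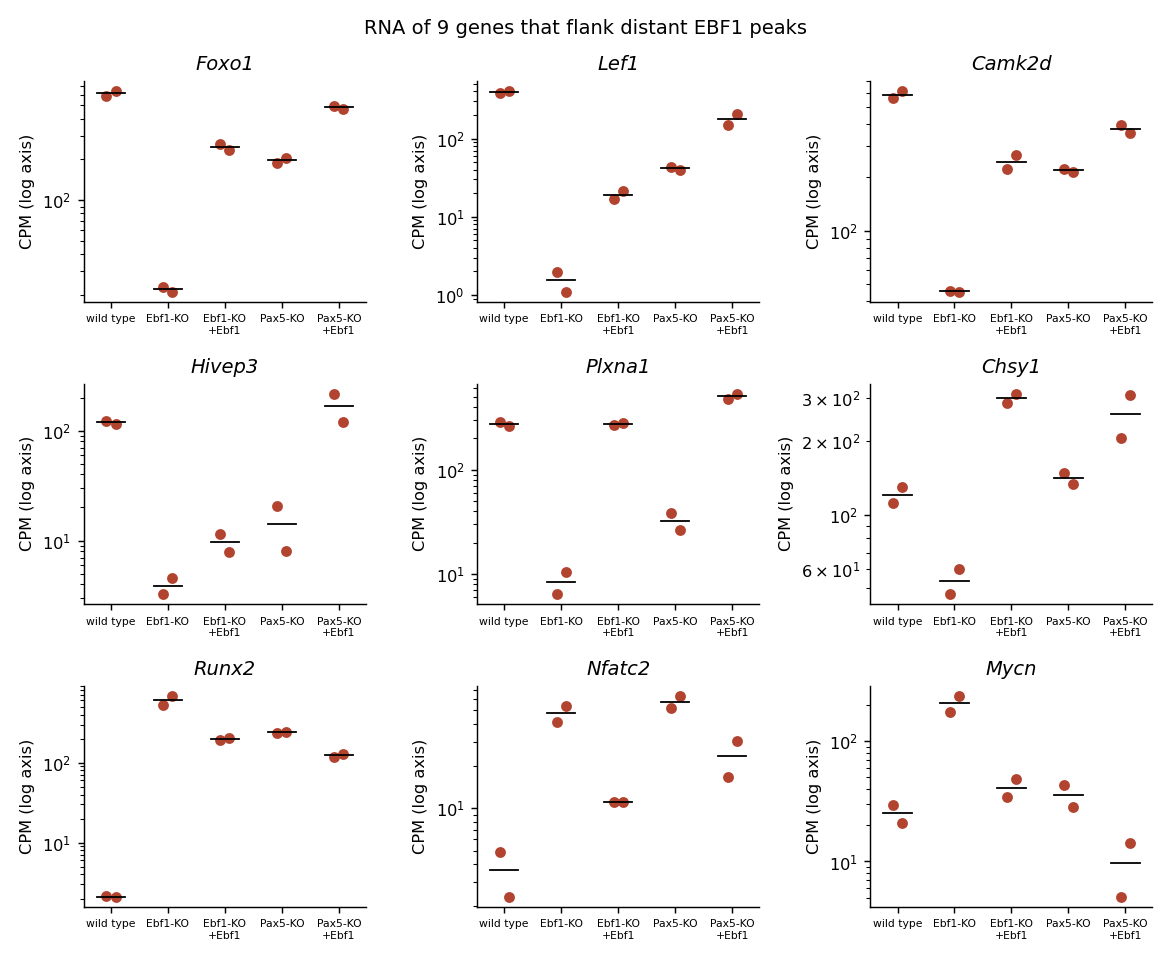
CPM (log axis) of 9 genes that flank distant EBF1 peaks in 5 groups of 2 RNA libraries, with a point for each library and a bar at the mean. Foxo1, Lef1, Camk2d, Hivep3, Plxna1 and Chsy1 are lower in Ebf1-KO than in wild type and Runx2, Nfatc2 and Mycn are higher. The libraries of these 2 groups do not overlap, as in all 207 flanking genes called between them.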

How the data were processed

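Replicate samples were compared by IDR and peaks were called with HOMER, per the file headers and the sample labels. Peak columns deposited by the authors are a normalized tag count (signal), a total tag count, a findPeaks score, a fold over input (ratio) and a focus ratio, the fraction of tags near the centre; coordinates are mm10. The deposited RNA values are whole-number exon counts made with HOMER, per the file headers. The deposited contact profiles are counts, pooled by the authors for each genotype. STAR (2.6.0b-1), HiC-Pro (2.11.1), HOMER (4.8), Bowtie2 and DESeq2 are named in the submitters' processing notes. No source used here gives a strand setting, so genes that overlap may share reads. All 7 RNA groups of 2 libraries, those with the Pax5 vector included, were fitted together with edgeR 4.0.16 (TMM scaling, quasi-likelihood test, threshold 0.05). DESeq2 served as an alternative. The fit was tested on simulated counts of 14202 genes for Ebf1-KO against wild type: it called 59 of 100 genes set 2 log2 units apart and 16 of 100 set 1 unit apart. Of these calls 0 had the wrong sign, and 1 unchanged gene was called. The simulated spread followed only the trend with expression level, not that of each gene, so these rates need not hold for the real counts. Replicates correlated at 0.895 to 0.971 (Pearson, across genes).

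Members, lists and tests were chosen with earlier results of these data known. Genes named are flanking genes: those with the largest called changes and no overlap of libraries (up to 12 in each direction in the first comparison, 6 in the others), those beside the 10 highest peaks and 5 largest groups, and those of the fixed lists; not all are printed. Column matching left 0 columns unused.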

Additional observations from a re-analysis of the deposited data

Results flagged for a closer look

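For 5 named neighbours of distant peaks, the effect of added Ebf1 differed between Ebf1-KO and Pax5-KO cells by edgeR's interaction test, adjusted over all genes tested. The difference, the log2 fold change in Ebf1-KO minus that in Pax5-KO, was 4.54 for Nav2 (edgeR adjusted p = 9.6e-07) and 3.46 for Thrb (edgeR adjusted p = 0.00011). It was 2.18 for Foxo1 (edgeR adjusted p = 0.00017) and 1.64 for Camk2d (edgeR adjusted p = 0.0063). In these 4 genes the starting level was lower in Ebf1-KO than in Pax5-KO: Nav2 had 11.8 and 10.1 CPM against 416 and 390.1, and Foxo1 23.0 and 21.3 against 189.6 and 204. Elfn1, a leucine-rich repeat gene with 2 peaks, gave 7.85 (edgeR adjusted p = 0.049), a fitted value that depends on the prior count, since it was at 0 in both Ebf1-KO libraries. With the Ebf1 vector it reached 3.23 and 3.65 CPM there, beside 18.9 and 17.3 in Pax5-KO cells. These differences were not recomputed under the alternatives.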

How the results depend on the processing

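How many peaks count as distant follows the limit: 3769 at 50 kb, 598 at 200 kb and 745 with RefSeq starts counted as well, the last out of 1649, since peaks on chromosome 18 were not compared with RefSeq starts here. The median tag count was 45.5 in the upper part of the list by score and 22.8 at 200 kb. The grouped share was 36.5% in that upper part, 51.2% and 36.1% at limits of 50 and 200 kb, and 30.3% and 63.8% with joins of 10 and 50 kb. The share inside genes was 43.4% at 50 kb and 27.4% at 200 kb. Contact shares scale with the window, at 2.44% and 23.6% in wild type and 2.01% and 24.9% in Ebf1-KO for 1 and 25 kb. Leaving out each library in turn gave 49 to 61 higher and 70 to 95 lower flanking genes in Ebf1-KO, 22 to 31 and 4 to 7 for Ebf1 added to Ebf1-KO, and 8 to 51 and 5 to 78 for Ebf1 added to Pax5-KO. With the 200 kb limit these calls numbered 33 and 43, 13 and 4, and 9 and 11, from fewer genes. For Ebf1 added to Ebf1-KO, DESeq2 called 27 genes lower, the fit without a filter 23, and the fit of only the 2 groups compared 64 higher and 33 lower. For Ebf1 added to Pax5-KO, DESeq2 called 59 and 53, the fit without a filter 44 and 42, and the nearest tested gene on each side gave 30 lower. With only those 2 groups edgeR called 8 higher and 0 lower, with 43 lower at an unadjusted p under 0.05; the cause was not tested. A replicate block gave 94 and 137, 45 and 13, and 38 and 26 calls; deviations of same-numbered libraries correlated at -0.059 to 0.24 over 21 pairs of groups, 13 of them above 0.1. Column headers give replicates 1 and 2 each a run tag of their own whose meaning is not stated, so a shared run was not settled and the fit without the block was kept; lower calls for Ebf1 added to Pax5-KO were 17 in it. Of 113 called values of named genes, 52 lost the call under at least 1 alternative and 0 turned direction. For the alternative fits, shares over all genes were not taken, so their counts cannot be set against all genes. The alternatives with RefSeq starts, without receptor loci and with the nearest tested gene were chosen after seeing the data. Motifs in peak sequences, and their 100-base alternative, were not run.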
